A study of Drosophila melanogaster with 17 samples.

Results

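The vacuolar proton pump genes were taken as the rows of the glial expression table whose FlyBase symbol starts with Vha, and 29 of the 13479 genes listed met this rule. The name table holds 33 such symbols. The other 4, Vha13, Vha26, Vha44 and Vha36-3, were not analysed here because their current identifiers matched no row, and they include the G, E and C subunits of the pump. In all groups the flies expressed a GFP-tagged ribosomal protein (repo-GAL4 driving UAS-GFP::RpL10A), so that ribosome-bound RNA of glia could be pulled down from pooled heads at lights-on (ZT0), a method called TRAP-seq. TBI flies had received controlled blows to the head (dCHI), and sham-treated flies had the same genotype, food and light cycle without the blows. There were 3 TBI and 3 sham libraries on day 1 after injury, 3 TBI and 3 sham libraries on day 3, and 2 TBI and 3 sham libraries on day 7, after the authors had set aside TBI replicate 3 of day 7. The sample labels number these days D3, D6 and D10, and the tables of the study give the same libraries as days 1, 3 and 7. The labels record female flies where the methods state male flies, and nothing in the labels says that replicates came from separate cultures, so that p-values measure the spread between these libraries only.

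The vacuolar ATPase (V-ATPase) is a rotary pump that uses ATP to move protons into lysosomes, endosomes and synaptic vesicles, and across the outer membrane of some gut and renal tubule cells. Its V1 sector in the cytosol splits ATP, with the A and B subunits in the head, D and F in the rotor shaft, C, E and G in the stalks and H as a regulatory subunit. Its V0 sector in the membrane carries the protons, with a ring of c-type proteolipids turning against subunit a, and with d, e and accessory proteins around them. The fly genome holds several copies of many subunits. A copy of each is generally used in most tissues, while others are known to be enriched in testis, gut or other places. In the brain the pump is known for the acidification of lysosomes, where glia break down engulfed material, and of the synaptic vesicles of neurons.

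Widely expressed and restricted copies were assigned from general knowledge of the family, 14 to the first class and 15 to the second. Values are TPM, transcript abundances corrected for transcript length and for the size of the library, and levels are set side by side between genes on that basis. The RNA was amplified before sequencing, and whether reads cover transcripts evenly was not tested. Comparisons of level between genes of unlike length are therefore approximate. TPM carry no depth, and precision can be judged from the replicates alone. The listed genes summed to 832800 to 854953 TPM per library, and 9880 to 11350 genes were above 0. Glial markers were present in every library, with repo, the pan-glial transcription factor, at 31.1 to 92.7 TPM and alrm, an astrocyte marker, at 243 to 591 TPM. Of the 9 glial markers summed below, Gs2 was the highest, at 1152 to 4145 TPM, so it weighs most in those sums. RNA of other cells was present too, as nSyb, a synaptic vesicle protein of neurons, was listed at 387 to 775 TPM. The 6 photoreceptor genes summed to 25430 to 58102 TPM, with ninaE alone at 22565 to 52558 TPM. The 5 fat body genes summed to 5311 to 21716 TPM, most of it Yp1 at 3531 to 15984 TPM. The 4 muscle genes measured summed to 430 to 1003 TPM. The part of other cells in the levels of the pump genes was not tested.

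Together the 29 genes made up 2624 to 3737 TPM, or 0.308% to 0.443% of the listed total. The 14 widely expressed copies supplied most of this, with 2518 to 3618 TPM, and the lowest of them in a library lay between 39.0 and 80.4 TPM. Of the V1 sector, Vha55, the single B subunit gene, ranged over the 17 libraries from 295 to 386 TPM with a median of 332. Vha68-2, a copy of the catalytic A subunit, ranged from 165 to 281 TPM, and Vha68-1, the other widely expressed A copy, from 39.0 to 109 TPM. Vha68-1 thus supplied between 15.98% and 30.8% of the RNA of these A copies. The rotor genes Vha14-1 (F) and Vha36-1 (D) lay at 172 to 282 TPM and 127 to 166 TPM, and VhaSFD, the H subunit, at 55.0 to 151 TPM. The summed A copies were listed at 0.670 to 1.11 times the level of the B subunit.

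Of the V0 sector, Vha16-1, the c proteolipid of the rotor ring, was the highest member in every library, at 651 to 1023.5 TPM with a median of 758. VhaPPA1-1, another proteolipid of the ring, lay at 109 to 240.2 TPM, and VhaAC39-1, the d subunit between ring and shaft, at 178 to 327 TPM. Subunit a, which forms the proton path and sets where in the cell the pump works, came from Vha100-1 at 41.8 to 86.0 TPM and Vha100-2 at 40.3 to 107 TPM. Their ranges overlapped almost entirely, and Vha100-2 supplied 39.2% to 62.4% of their sum. The ring proteolipid Vha16-1 was listed at 4.998 to 8.81 times the level of these a copies. The small e subunit came mainly from VhaM9.7-b at 261 to 398 TPM, or 62.9% to 77.2% of 3 copies, with VhaM9.7-a at 63.5 to 169 TPM. The accessory glycoprotein VhaAC45 lay at 153 to 239 TPM. In the order of median levels, most neighbours had ranges that overlapped, so their ranks were not separated. Examples are Vha55 and VhaM9.7-b, Vha14-1 and VhaAC39-1, Vha68-2 and VhaAC45, VhaPPA1-1 and Vha36-1, and Vha100-1, Vha100-2 and Vha68-1. Vha16-1 stood above every other member without overlap.

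**Figure D1:**
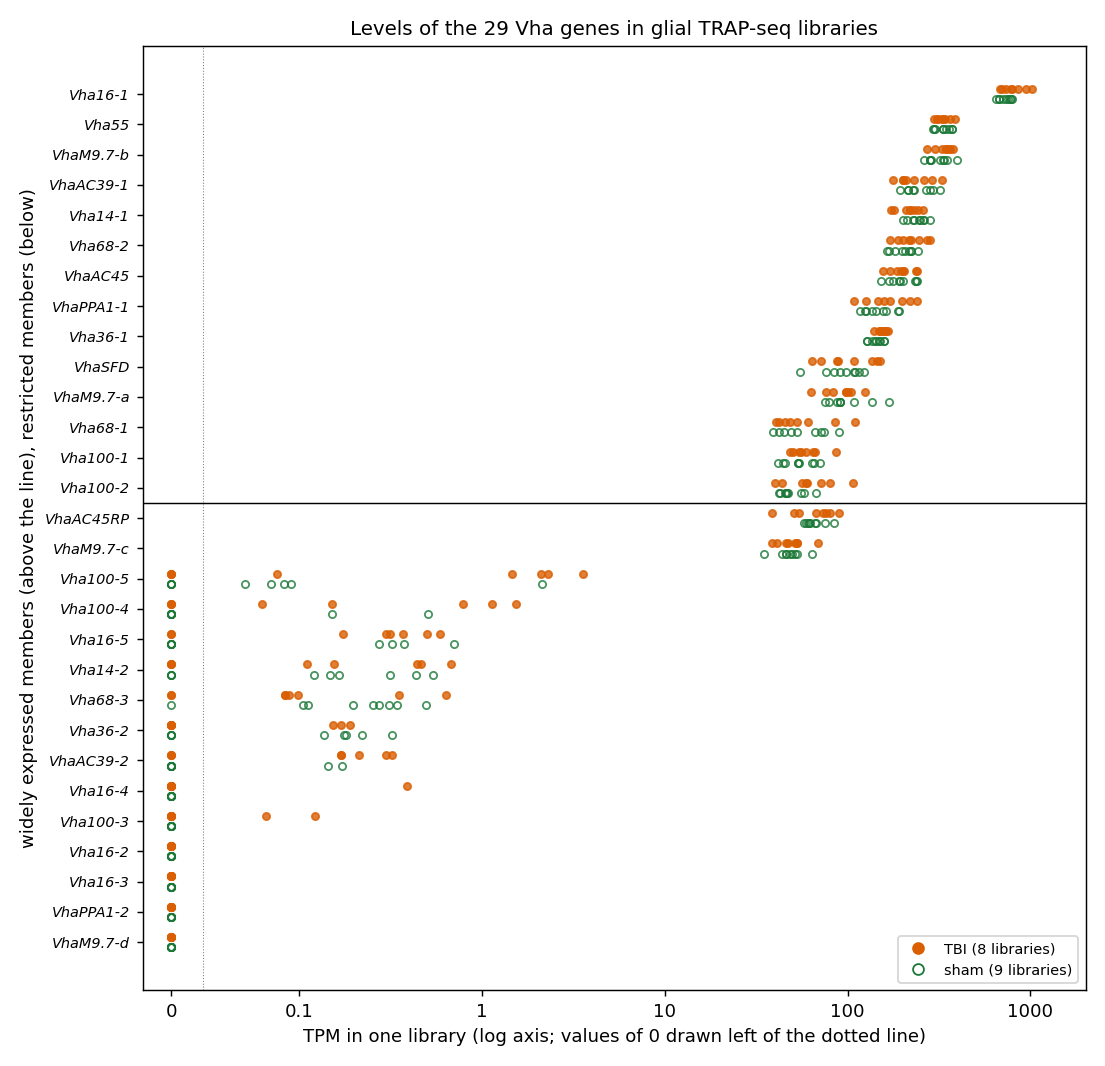
TPM of each of the 29 Vha genes in each library on a log axis, with values of 0 left of the dotted line. Filled orange points are the 8 TBI libraries, open green points the 9 sham libraries, and the line across separates the 14 widely expressed copies from the 15 restricted ones. The widely expressed copies lie between 39.0 and 1023.5 TPM, VhaAC45RP and VhaM9.7-c lie among the lowest of them, and the other 13 restricted copies reach 3.57 TPM at most.

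The restricted class was not uniform. VhaM9.7-c, an e subunit copy, was listed at 35.1 to 68.8 TPM and VhaAC45RP, a relative of the accessory glycoprotein, at 38.7 to 90.1 TPM, so both went against the class they had been given and stood at the level of the low widely expressed copies. The other 13 were at 3.57 TPM or below in every library, and 11 of them never passed 1 TPM. Vha16-2, Vha16-3, VhaM9.7-d and VhaPPA1-2 were at 0 in all 17 libraries. Vha16-4 was above 0 in 1 library only, TBI replicate 3 of day 1 with 0.389 TPM, and Vha100-3 in TBI replicate 1 of day 1 with 0.0663 TPM and TBI replicate 1 of day 7 with 0.123 TPM. Vha68-3, Vha14-2, Vha16-5, Vha36-2 and VhaAC39-2 (copies of the A, F, c, D and d subunits) had highest values between 0.321 and 0.703 TPM. Vha100-4 and Vha100-5, copies of subunit a, were the only low members above 1 TPM in any library. Of 15 testis marker genes, summed to 4.72 to 19.9 TPM per library, Mst98Ca, Mst84Db, aly and ProtA were at 0 in every library. By contrast fzo (0.305 to 6.92 TPM), S-Lap1 (0.230 to 1.43 TPM) and betaTub85D (0.113 to 0.858 TPM) were above 0 in every library. The rest were above 0 in some libraries, with bam reaching 8.89 TPM.

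Several low copies lie beside a copy with a high level on release 6 of the fly genome. Vha68-3 lies 178 bases from Vha68-2 on chromosome 2L, Vha100-4 lies 517 bases from Vha100-2 on 3R, and VhaPPA1-2 lies 2052 bases from VhaPPA1-1 on 3R. Levels of these neighbours were far apart, since the low partner of each pair never passed 1.55 TPM and the high partner never fell below 40.3 TPM. Vha16-2 and Vha16-3 lie 985 bases apart on 3L and were both at 0. Exons of Vha100-5 (2L, 11738948 to 11744524, plus strand) overlap an antisense RNA, and exons of Vha100-4 (3R, 18386841 to 18389805, minus strand) overlap the gene cona on the other strand, which was itself listed at 0 to 0.681 TPM. Exons of Vha100-1 likewise overlap Alg13, those of Vha16-2 an antisense RNA and those of VhaPPA1-2 CG3817, each on the other strand. CG3817 was listed at 10.3 to 37.9 TPM while VhaPPA1-2 was at 0 in every library. The sources used here do not state whether reads were assigned by strand, and how reads of overlapping exons were divided is not known.

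On day 1 after TBI, the widely expressed pump genes were not called and 1 low copy of the a subunit rose. A gene was called where its log2 fold change was 0.6 or more in either direction and its adjusted p did not exceed 0.1 (limma on log2(TPM + 1), Benjamini-Hochberg over all genes tested), and fold changes are TBI over sham on that scale, which understates the change of low genes. Of 25 members above 0 on that day, 1 was called, Vha100-5, against 2.86% of the 12085 genes tested. None of the 14 widely expressed copies was called in limma, against 3.63% of the 5349 genes with a mean of at least 10 TPM. An unadjusted p under 0.05 was found for 3 of the 14, against 26.2% of those genes. Their log2 fold changes lay between -0.30 and 0.31 with a median of -0.05, beside -0.03 over 8764 genes averaging 1 TPM or more, and 6 of the 14 were higher in TBI, beside 40.5% of the genes of at least 10 TPM. With the replicate number as a block, all 14 of their 95% intervals lay within a log2 fold change of 0.6 in either direction. The interval of Vha68-1 reached -0.597, and its limma adjusted p was 0.273 with the block and 0.738 without it. Intervals without the block are not given here, so a change of 0.6 is not excluded for every copy. At an unadjusted p under 0.05 there were 6 of the 25 members, beside 18.2% of all genes tested, while 4 members had every TBI value above every sham value, beside 10.1%, and 1 had every TBI value below, beside 5.95%. Vha100-4 and VhaAC39-2 are among both the 6 and the 4. They entered the test only through TBI libraries, as sham was at 0, so their place in these counts is no support for a rise. These RNA levels come from pooled tissue, in which fewer cells of a type and less RNA per cell cannot be told apart. On the same day 9 glial markers summed to 3166 to 4396 TPM in TBI and 4273 to 6219 TPM in sham, and the photoreceptor genes to 25430 to 33419 TPM in TBI and 44340 to 45984 TPM in sham. The fat body genes summed to 5311 to 12217 TPM in TBI and 12853 to 21716 TPM in sham. Sums of the neuronal and of the muscle genes overlapped between the groups.

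On day 1 Vha55, the B subunit, had 329, 309 and 298 TPM in TBI and 371, 371 and 344 TPM in sham. Each TBI value was lower than each sham value, with a log2 fold change of -0.21 (SE 0.07) and an adjusted p of 0.264 in limma, so it was not called. Vha68-1, a catalytic A copy, had 85.3, 48.7 and 40.6 TPM in TBI and 89.9, 66.8 and 53.1 TPM in sham. Each TBI library was below the sham library of its number although the groups overlapped, and the log2 fold change was -0.30 (SE 0.11, limma adjusted p = 0.273). VhaM9.7-b, the main e subunit copy, had 376, 343 and 345 TPM in TBI and 318, 283 and 261 TPM in sham. All TBI values were above all sham values, with a log2 fold change of 0.31 (SE 0.08, limma adjusted p = 0.190). None of these 3 passed the test across all genes.

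Vha100-5, a low copy of the a subunit, rose on day 1, with 2.29, 2.11 and 1.46 TPM in TBI and 0.0704, 0 and 0.0832 TPM in sham. The groups did not overlap, and the log2 fold change was 1.48 (SE 0.16, limma adjusted p = 0.0540). This RNA stayed far below that of the main a copies, as Vha100-1 had 66.4, 58.9 and 50.2 TPM and Vha100-2 71.7, 59.1 and 43.9 TPM in the same TBI libraries. The call did not hold when replicate 1, 2 or 3 was left out (adjusted p of 0.146, 0.316 and 0.152) or in a joint fit of all 17 libraries (0.242), while the log2 fold change there stayed between 1.40 and 1.63. The same gene was also high in sham replicate 2 of day 3, at 2.13 TPM, and in TBI replicate 1 of day 7, at 3.57 TPM. In the other 9 libraries outside day 1 it did not pass 0.0902 TPM.

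Vha100-4, an a copy known in the fly for the acid-secreting copper cells of the midgut, had 0.786, 1.13 and 0.151 TPM in TBI on day 1 and was listed at 0 in all 3 sham libraries. VhaAC39-2, a d subunit copy, had 0.323, 0.213 and 0.171 TPM in TBI and was likewise listed at 0 in the sham libraries of that day. Both were above sham without overlap, with log2 fold changes of 0.71 and 0.30. Neither was called (SE 0.21 and 0.09, limma adjusted p = 0.219 and 0.233). In all, 4 members, these and Vha100-3 and Vha16-4, entered the test of day 1 only through TBI libraries. Outside day 1, Vha100-4 reached 1.55 TPM in TBI replicate 1 of day 7 and 0.509 TPM in sham replicate 2 of day 3, and was at 0.152 TPM or below in the other libraries.

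The 5 libraries with high Vha100-5 were also those in which digestive enzyme genes were high. The 26 trypsin, Jonah protease, amylase and maltase genes of the midgut list summed to 536 to 995 TPM in these 5 libraries and to 7.80 to 33.3 TPM in the other 12. Vha100-5 was at 1.46 to 3.57 TPM in the 5 and at 0 to 0.0902 TPM in the 12, and Vha100-4 was at 0.151 to 1.55 TPM in the 5 and at 0 to 0.152 TPM in the 12. The set holds all 3 TBI libraries of day 1, 1 of the 2 TBI libraries of day 7 and 1 of the 3 sham libraries of day 3, so libraries of both treatments are in it. On day 1 the enzymes summed to 536 to 995 TPM in TBI and 7.80 to 17.1 TPM in sham. Of the 23 enzyme genes tested 13 were called, all higher in TBI, beside 2.19% of all genes called higher. Many of the list were at 0 in most libraries, with Jon25Bi, Jon65Ai, Jon65Aii and Jon99Fi at 0 in 12 of the 17. A gene at 0 in sham enters the test only through TBI libraries, so the count of 13 is no support for a rise. The part of the enzyme genes in the rise of Vha100-5 was not tested.

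**Figure D2:**
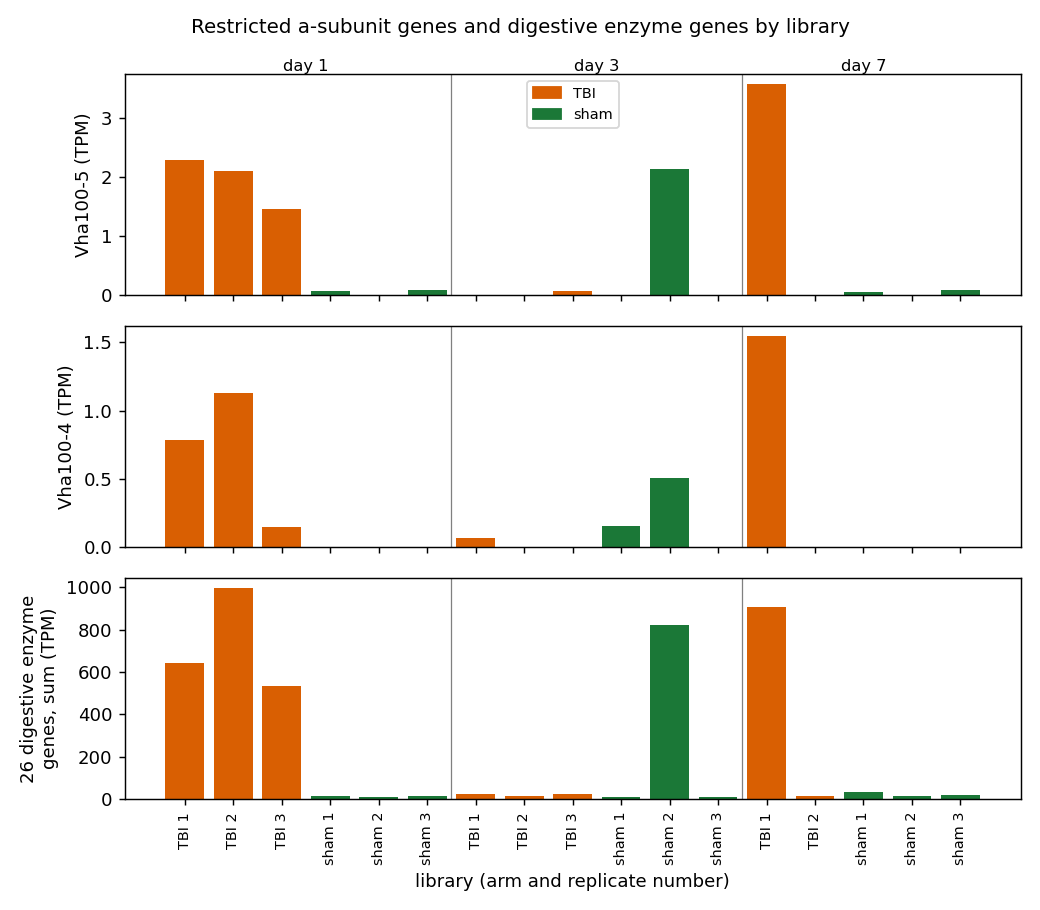
TPM of Vha100-5 (top), Vha100-4 (middle) and the sum over 26 midgut digestive enzyme genes (bottom) in each of the 17 libraries, orange for TBI and green for sham, with each axis starting at 0. The same 5 libraries stand out for Vha100-5 and for the enzymes, which are the 3 TBI libraries of day 1, sham replicate 2 of day 3 and TBI replicate 1 of day 7.

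On day 3 no pump gene was called. Of the 23 members tested 0 were called, as were 0 of the 11835 genes tested (0%), of which 5.81% had an unadjusted p under 0.05 in limma. Among the members 1 had such a p, Vha14-1, the F subunit of the rotor, with 172, 209.9 and 220.0 TPM in TBI and 229, 248 and 259 TPM in sham. All TBI values lay below all sham values, and the log2 fold change was -0.29 (SE 0.09, limma adjusted p = 0.815). VhaM9.7-b, the e copy that had been above sham on day 1, lay below it on day 3, with 300.3, 272 and 329 TPM in TBI and 335, 335 and 348 TPM in sham. These were the 2 members with every TBI value below every sham value, beside 3.13% of all genes. For VhaM9.7-b the log2 fold change was -0.18 (SE 0.10, limma adjusted p = 0.818). The widely expressed copies had log2 fold changes of -0.29 to 0.26 with a median of 0.07, beside 0.02 over 8765 genes averaging 1 TPM or more, and 10 of 14 were higher in TBI, beside 51.5% of genes of at least 10 TPM. With the replicate block, the intervals of 11 of the 14 lay within 0.6, and those of Vha68-1, VhaSFD and Vha100-1 reached further, to between -0.75 and 0.90. The 9 glial markers summed on this day to 3046 to 3177 TPM in TBI and 3635 to 4262 TPM in sham.

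On day 7 again no pump gene was called, with 2 TBI libraries against 3 sham libraries. Of the 24 members tested 0 were called, as were 0 of the 11966 genes tested (0%). Before adjustment, 0 members and 4.21% of all genes reached a limma p under 0.05. Vha16-1, the ring proteolipid, had 857 and 797 TPM in TBI and 705, 675 and 671 TPM in sham. Vha36-1, the D subunit of the shaft, had 166 and 159 TPM in TBI and 149, 128 and 141 TPM in sham. Vha55 had 364 and 333 TPM in TBI and 332, 295 and 299 TPM in sham. These were the 3 members whose groups did not overlap, all with TBI above sham, beside 15.1% of all genes tested. Their log2 fold changes of 0.27, 0.22 and 0.18 became -0.036, -0.084 and -0.13 after upper-quartile scaling.

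The largest fold change of a widely expressed copy was that of Vha100-2 on day 7, with 107 and 56.6 TPM in TBI and 58.0, 45.8 and 42.4 TPM in sham. Its TBI replicate 1 was far above the rest, replicate 2 lay within the range of sham, and the log2 fold change of 0.68 (SE 0.32, limma adjusted p = 0.717) was 0.22 without TBI replicate 1 and 1.13 without TBI replicate 2. After upper-quartile or median-of-ratios scaling it was 0.37. Vha100-5 had 3.57 and 0 TPM in TBI and 0.0507, 0 and 0.0902 TPM in sham, so its log2 fold change of 1.03 (SE 0.62, limma adjusted p = 0.717) rested on the first of the TBI libraries and was -0.065 without it. Vha100-4 was at 1.55 TPM in that library and was listed at 0 in the other 4 of the day (log2 fold change 0.67, SE 0.39, limma adjusted p = 0.717). Among the widely expressed copies 12 of 14 were higher in TBI, beside 72.6% of genes of at least 10 TPM, and the median log2 fold change of 0.20 lay below the 0.29 found over 8766 genes with a mean of at least 1 TPM. After upper-quartile scaling within the day the median over those genes was 0.01, the median of the 14 copies was -0.10 and 4 of them were higher, so their direction on day 7 depended on the scaling. The intervals of 12 of the 14 lay within a log2 fold change of 1, and 1 of them within 0.6. For the others a change of 0.6 in at least 1 direction was not excluded by these libraries. On this day the glial markers summed to 2083 to 2684 TPM in TBI and 3344 to 4638 TPM in sham.

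**Figure D3:**
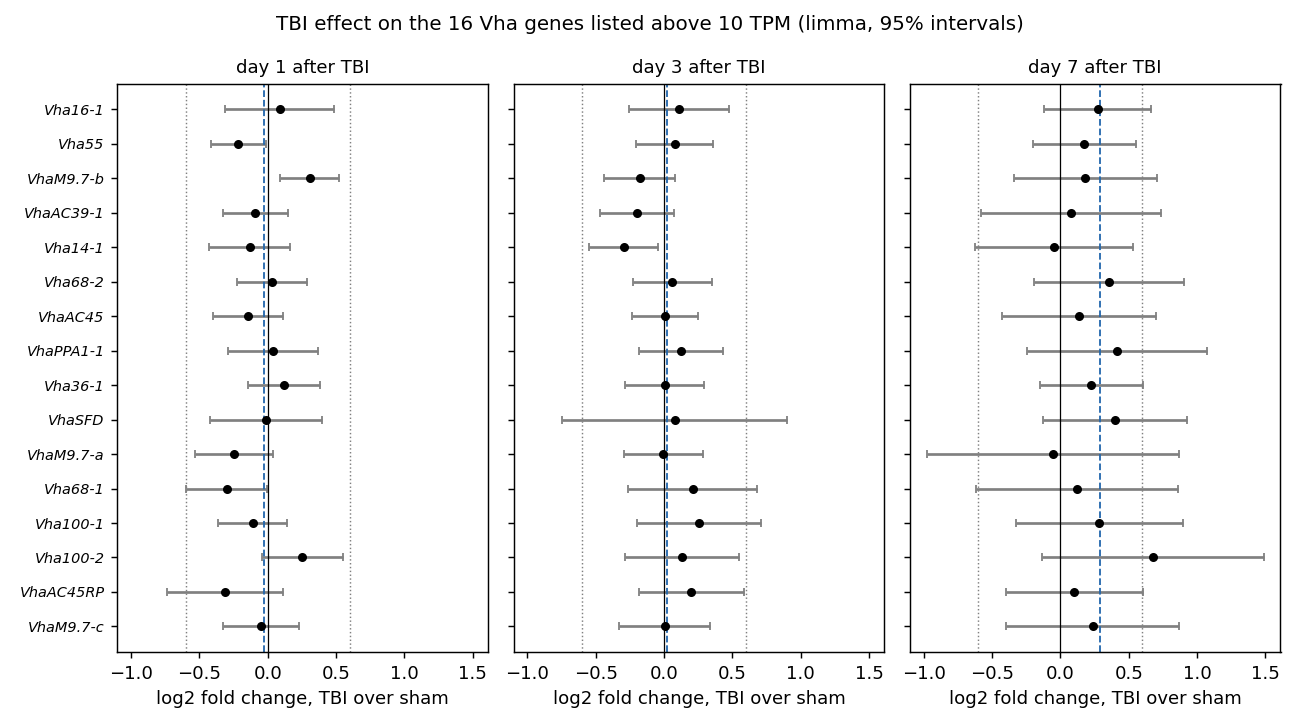
Log2 fold change of TBI over sham for the 16 Vha genes above 10 TPM on each day, with 95% intervals from limma. The solid line is at 0, the dotted lines at 0.6 in either direction, and the dashed line at the median of all genes with a mean of at least 1 TPM, which is -0.03, 0.02 and 0.29 for the days in this order. The intervals are widest on day 7, where Vha100-2 reaches 0.68.

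The effects of TBI on different days were set against each other in an interaction model. For day 1 against day 3, 0 of 25 members passed, beside 0.0161% of 12446 genes, and 5 members had an unadjusted p under 0.05 in limma, beside 13% of all genes. VhaM9.7-b had the lowest p of these, with an effect on day 1 that was higher by 0.48 (SE 0.11, limma adjusted p = 0.201), and Vha100-5 differed by 1.99 (SE 0.49, limma adjusted p = 0.221). Part of the latter came from day 3, where the log2 fold change of Vha100-5 was -0.51 (SE 0.40). There sham replicate 2 alone was high, at 2.13 TPM. Vha55 differed by -0.29 (SE 0.12, limma adjusted p = 0.373), and the others were the low copies Vha100-4 and VhaAC39-2. For day 1 against day 7, 0 of 25 members passed, beside 0.04% of 12493 genes, and 1 member, Vha55, passed 0.05 before adjustment, beside 3.8%, with a difference of -0.39 (SE 0.15, limma adjusted p = 0.811). After upper-quartile scaling the log2 fold change of Vha55 was -0.22 on day 1 and -0.13 on day 7. A difference between days was thus not shown for any member.

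Copies of the same subunit can be compared within a library, where any scaling of the library cancels. For the e subunit, the log2 ratio of VhaM9.7-b over VhaM9.7-a on day 1 was 2.14 ± 0.27 in TBI and 1.58 ± 0.05 in sham (SD, n = 3 each, exact permutation test, two-sided, p = 0.1). For the a subunit, the log2 ratio of Vha100-2 over Vha100-1 was -0.03 ± 0.15 in TBI and -0.40 ± 0.21 in sham (SD, n = 3 each, exact permutation p = 0.1). The groups did not overlap in either ratio, and 0.1 is the smallest p that 3 against 3 libraries allow. On day 3 both ratios overlapped between the groups, with means of 1.60 in TBI and 1.77 in sham for the e copies and -0.07 in TBI and 0.06 in sham for the a copies (exact permutation p = 0.5 and 0.6). On day 7 the means were 1.84 in TBI and 1.60 in sham for the e copies and 0.37 in TBI and -0.02 in sham for the a copies (exact permutation p = 0.5 and 0.2), again with overlap. These ratios were chosen after the values had been seen, and over the 6 tests the lowest adjusted p was 0.3.

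**Figure D4:**
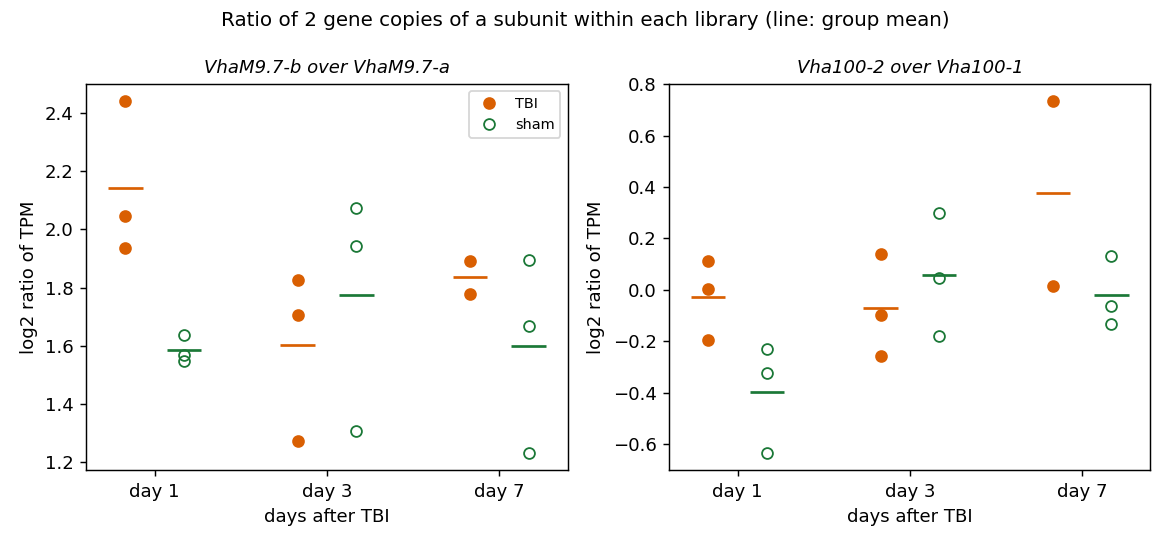
Log2 ratio of TPM between copies of the e subunit (left, VhaM9.7-b over VhaM9.7-a) and of the a subunit (right, Vha100-2 over Vha100-1) in each library, with filled orange points for TBI, open green points for sham and a line at each group mean. On day 1 all 3 TBI libraries lie above all 3 sham libraries in both panels, and on days 3 and 7 the groups overlap.

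Levels also differed by replicate number. Within groups the SD of log2(TPM + 1) of the widely expressed copies had a median of 0.256, from 0.105 for Vha36-1 to 0.503 for Vha68-1, beside a median of 0.311 over 5349 genes with a mean of at least 10 TPM. Replicate 1 was the highest library of its group in all 6 groups for 6 of the 16 members above 10 TPM, namely Vha68-1, Vha68-2, Vha100-2, VhaPPA1-1, VhaAC39-1 and VhaAC45, beside 16.04% of the genes of at least 10 TPM. No member was highest in replicate 2 or in replicate 3 of every group that has one. After upper-quartile scaling of the libraries replicate 1 was the highest throughout for VhaAC39-1 only, and for 9.25% of the genes of at least 10 TPM, so most of this order depended on the scaling. For Vha68-1, replicate 1 had 85.3 TPM in TBI and 89.9 TPM in sham of day 1. The values of replicate 1 were 109 TPM in TBI and 71.4 TPM in sham of day 3, and 60.7 TPM in TBI and 73.9 TPM in sham of day 7. The other libraries of this gene lay between 39.0 and 66.8 TPM, whatever the treatment. Vha14-1 did not share this order, and its replicate 1 was the lowest of the TBI libraries on day 3, at 172 TPM, and on day 7, at 179 TPM. What the replicate number stands for is not stated in the labels.

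**Figure D5:**
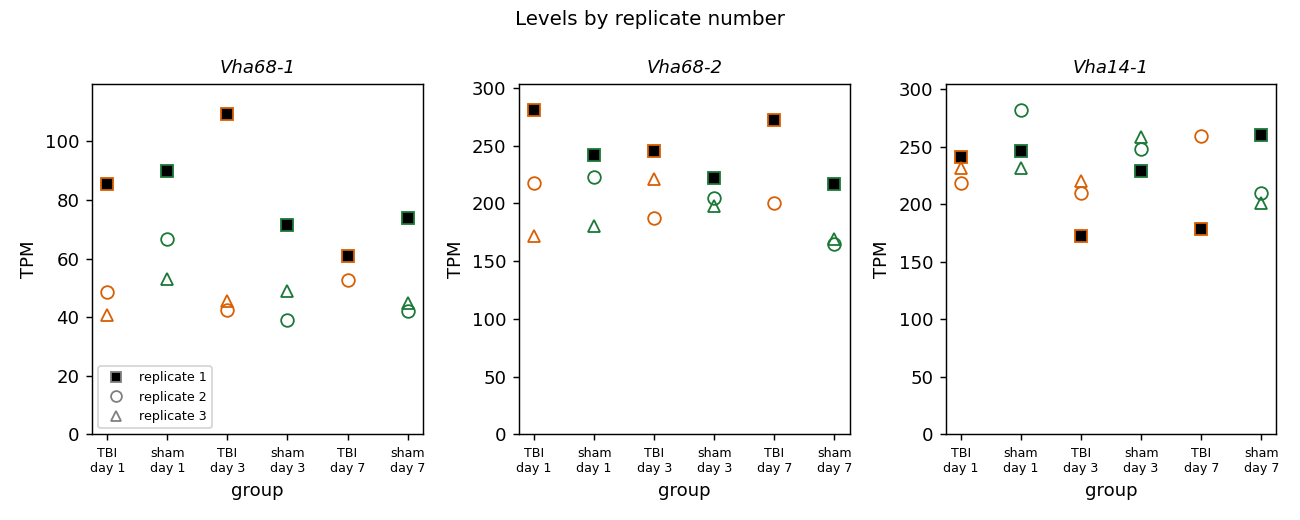
TPM of the A subunit copies Vha68-1 and Vha68-2 and of the F subunit Vha14-1 in each library of the 6 groups, in orange for TBI and green for sham, with replicate 1 as filled squares, replicate 2 as circles and replicate 3 as triangles. In the deposited values replicate 1 is the highest of every group for Vha68-1 and Vha68-2, which did not hold after upper-quartile scaling, and is the lowest TBI value of Vha14-1 on days 3 and 7.

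None of the genes that assemble or regulate the pump, or signal from it on the lysosome, was called. The 12 such genes include mtd, the Rag and Lamtor genes of the TOR pathway, and Mitf, a transcription factor of lysosome genes. Another is ATP6AP2, an accessory protein of the pump formerly named VhaM8.9. Of the 12, 11 were above 0, and 0 of 11 were called on any day in limma. Beside this, 2.86%, 0% and 0% of all genes tested were called on days 1, 3 and 7, so 0 of 11 is near the share of all genes. Before adjustment, 0 of them on day 1, 2 on day 3 and 0 on day 7 had a p under 0.05, beside 18.2%, 5.81% and 4.21% of all genes tested. ATP6AP2 was listed at 119 to 176 TPM and had a log2 fold change of 0.08 on day 1, and Mitf had -0.11. On day 3, Rbcn-3A, a rabconnectin that promotes pump assembly, had a log2 fold change of 0.64 (SE 0.23, limma adjusted p = 0.815) and Lamtor3 of -0.29 (SE 0.10, limma adjusted p = 0.815). Rbcn-3A had 22.3, 6.42 and 7.34 TPM in TBI and 10.97, 3.998 and 5.33 TPM in sham on that day, with overlap. On day 7 it had a log2 fold change of 0.66 (SE 0.55, limma adjusted p = 0.722).

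Of 29 lysosomal genes, 26 were measured and 25 were tested on day 1, of which 2 were called higher, 0 were called lower and the rest did not pass, beside 2.86% of all genes called. Those called were LManVI and LManV, copies of lysosomal alpha-mannosidase, with log2 fold changes of 1.58 (SE 0.15, limma adjusted p = 0.0393) and 1.14 (SE 0.17, limma adjusted p = 0.0848). LManVI had 2.64, 2.00 and 1.82 TPM in TBI and 0.0597, 0.0885 and 0 TPM in sham on day 1, and its next highest values were 0.932 TPM in sham replicate 2 of day 3 and 1.14 TPM in TBI replicate 1 of day 7. These are the libraries in which the digestive enzymes and Vha100-5 were high. On day 1, 8 of the 25 had an unadjusted p under 0.05 in limma, 4 higher and 4 lower in TBI, beside 18.2% of all genes. Among these, genes not called had log2 fold changes of -0.65 for LManII, -0.76 for Cln3, the fly relative of a Batten disease gene, -0.85 for Hexo2, a hexosaminidase, -0.53 for spin, a transporter of the lysosomal membrane, and 0.35 for Npc2a, a sterol-binding protein (limma adjusted p between 0.102 and 0.220). The abundant Lamp1, CtsB, cathD and CtsL1, with means of 713, 360, 354 and 291 TPM, had log2 fold changes of -0.20, -0.09, -0.08 and -0.03 and were not called. Gba1a, a glucocerebrosidase copy, had 0.996, 0.438 and 0.117 TPM in TBI and was listed at 0 in sham on day 1 (limma adjusted p = 0.262). It is among the 4 higher genes but entered the test of that day only through TBI libraries, so its place there is no support for a rise. No lysosomal gene was called on day 3 or day 7 in limma, where 3 and 0 of them passed 0.05 before adjustment, beside 5.81% and 4.21% of all genes. On day 3 these were Hexo2, Cln3 and CtsK1, a cathepsin, with log2 fold changes of -0.42, -0.50 and -0.46 (SE 0.11, 0.15 and 0.15, limma adjusted p = 0.815 each). On day 7 the values were -0.61 for Hexo2, -0.63 for Cln3 and 0.60 for CtsK1 (SE 0.37, 0.31 and 0.42, limma adjusted p = 0.717 each).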

How the data were processed

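Glial ribosome-bound RNA was amplified and sequenced by the authors as 50-base single reads. Per the labels and the methods, reads were quantified with Kallisto against FlyBase transcripts, and transcripts were summed to genes with tximport. The deposited unit is TPM, which the authors' tools correct for length and total. The count-based test of the study cannot be run on them, so limma 3.58.1 (R 4.3.3) was fitted to log2(TPM + 1), with a pseudocount of 1 and empirical Bayes moderation with a trend. The replicate number was a block on days 1 and 3. Every gene listed above 0 in any library of a day was tested, with Benjamini-Hochberg adjustment over all of them. The fits were tested on simulated data with large changes placed in genes above 10 TPM. Smaller changes and low copies were not covered. Members and gene lists were chosen with earlier results of these data known. For each day, members with an unadjusted p under 0.05 or a log2 fold change of 0.6 or more in either direction were named with statistics. Other genes came from fixed lists, mostly by this rule. Names matched for 97.4% of identifiers, and Vha68-1 and VhaAC39-1 were named from the study's tables. Coordinates are those of Ensembl annotation 115 on genome release 6. Alternatives covered the block, scaling, pseudocount, a minimum of 1 TPM, thresholds, a joint fit and each replicate left out. Figures were drawn with matplotlib 3.10.9.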

Additional observations from a re-analysis of the deposited data

How the results depend on the processing

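The count of members called on day 1 was 1 in 6 of 11 alternatives and 0 in 5, namely the joint fit of all 17 libraries, thresholds of 1 and 0.05, and the removal of replicate 1, 2 or 3 (0 in each). Vha100-5 kept a log2 fold change of 1.40 to 3.79 on day 1 over 9 alternatives, with limma adjusted p from 0.00759 to 0.316. On day 3 the count was 0 in all 11 alternatives. On day 7 it was 0 in 12 of 13 and 2 without TBI replicate 2 (Vha100-4 and Vha100-5), where the lone TBI library is assumed to vary like sham; leaving out other replicates gave 0. The log2 fold change of Vha100-5 on day 7 was -0.065 without TBI replicate 1 and 2.13 without TBI replicate 2. The difference between days 1 and 7 had 1 member called (Vha100-5) without replicate 1 and 0 in the other 6 alternatives. The median log2 fold change of the widely expressed copies on day 7, 0.20, was -0.10 after median-of-ratios or upper-quartile scaling and 0.15 to 0.33 with single libraries left out. Of the 16 members above 10 TPM, replicate 1 was the highest of all 6 groups for 6 in the deposited values and for 1 after upper-quartile scaling, a check added after the data had been seen. Over the alternatives of the day the median lay between -0.12 and 0.01 on day 1, with the lowest without replicate 1 and the highest without replicate 2, and between 0.01 and 0.07 on day 3.

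Deviations from group means correlated between same-numbered libraries at 0.00423 to 0.376 on day 1, -0.0291 to 0.451 on day 3 and 0.124 to 0.224 on day 7. Not every pair passed 0.1, so whether the number pairs the libraries is not known. The main fits of days 1 and 3 still used it as a block. For Vha68-1 on day 1 the limma adjusted p was 0.273 with the block and 0.738 without it. Without the replicate block 1 member was called on day 1 and 0 on day 3, and with the block 0 were called on day 7. These counts are the same as in the main fits. With single libraries left out, the day 1 difference of the ratios, TBI minus sham, was 0.41 to 0.66 for the e copies and 0.25 to 0.45 for the a copies, which were chosen after the data had been seen. TPM hold no depth, so the counting error of low copies is unknown.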
